A study of Homo sapiens with 18 samples.

Results

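The genes described here are REST, which encodes a repressor of neuronal genes, and 9 genes used as markers of neurons: NEFL, NEFM, INA, STMN2, TUBB3, SNAP25, SYT1, GAP43 and SCG2. They were taken as a named list, 10 of the 19103 autosomal protein-coding genes of GENCODE 44, and each was represented by its gene body and 10 kb on either side (its window). A peak belonged to a gene when it shared at least 1 bp with that window. ChIP-seq for H3K27ac, a histone acetylation found at active promoters and enhancers, and for CTCF, a zinc finger protein found at loop anchors and domain borders, had been performed on HEK293T cells. These are a transformed human embryonic kidney line known to express a number of neuronal genes. Cells were untreated (CTRL) or had been given 1 mM VPA, valproic acid, for 1 day, with 3 libraries per antibody and treatment. The comparison asks how the histone deacetylase inhibitor VPA altered acetylation and CTCF occupancy at these genes.

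REST binds a long DNA element called RE1 and recruits, among others, the SIN3 and CoREST complexes, which carry histone deacetylases. Outside the nervous system it keeps many neuronal genes silent, and histone deacetylase inhibitors interfere with the enzymes it depends on. H3K27ac at a promoter accompanies transcription, but the peak lists hold no measure of RNA.

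The RE1 motif matches of the genes are shown first. They are matches of letters only, and REST binding was not measured in these libraries. The motif TTCAGCACCNNGGACAGCGC was searched on both strands of hg38, allowing 2 mismatches in its 18 fixed letters. A match lay in 5 of the 10 windows, with 1 match each for NEFM, STMN2, INA, TUBB3 and SNAP25. Among all autosomal protein-coding genes, 588 windows held a match (3.08%), and 10 of 18 windows did in a list of textbook REST targets. In the sequences below, read 5′ to 3′ on the strand of the match, capitals mark the letters equal to the motif.
INA: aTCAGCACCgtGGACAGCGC
TUBB3: gTCAGCACCaaGGACAGCGC
SNAP25: TTCAGCACCggGGACAGCGg

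The INA match (chr10:103279009-103279028) lay inside the gene on the opposite strand, 1.88 kb after the start site. The TUBB3 match (chr16:89926504-89926523) lay on the strand of the gene, 3.17 kb after its canonical start. The SNAP25 match (chr20:10219672-10219691) lay on the strand of the gene, 0.852 kb after its canonical start. Each of the 3 had 1 mismatch. Relative to their start sites the NEFM match lay at -0.923 kb and the STMN2 match at -1.56 kb, both with 2 mismatches. No match was found in the windows of REST, NEFL, SYT1, GAP43 and SCG2, which says only that these letters are not there.

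Some properties of the whole data set bear on every value below. The H3K27ac lists held 26299 to 29799 peaks in CTRL and 38441 to 40992 in VPA. The CTCF lists held 39818 to 58782 in CTRL and 36469 to 55325 in VPA. The replicate 1 libraries stood apart. Over the regions found in all 6 libraries, the median fold enrichment of H3K27ac was 7.63 and 7.52 in the replicate 1 libraries of CTRL and VPA, against 15.3 to 17.2 in the others. For CTCF it was also lower in replicate 1, at 14.98 and 12.4 against 42.5 to 45.3. The fold enrichment is the number of fragments over a summit plus 1, divided by its local background plus 1. The start sites of PAX2, LHX1, EYA1 and WT1, kidney developmental factors known from HEK293 lines, were acetylated in all 6 H3K27ac libraries. None of 4 genes of mature kidney, 3 of blood and 2 of liver was acetylated in all 6, while 1 of 3 glial genes was (MBP, which encodes a myelin protein). Of these markers AQP4 had a peak in 2 VPA libraries and 0 CTRL libraries, and HBA1 and APOA1 in 1 VPA library each.

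Acetylation was present at most of these genes in untreated cells. A peak of H3K27ac lay within 1 kb of the canonical start site in all 6 libraries for REST, NEFL, NEFM, INA, SYT1, GAP43 and TUBB3, 7 of 10 genes, compared with 61.0% of all genes. With only peaks of a −log10 q of at least 10 it was 5 of 10 against 59.3%, and with lists of equal length 6 of 10 against 60.4%. SNAP25, which encodes a SNARE protein of synaptic vesicle fusion, had no such peak in CTRL and one in VPA replicates 2 and 3. STMN2, a microtubule regulator of growing axons, and SCG2, a granin of dense core granules, had none in any library. No gene of the list went from 0 of 3 CTRL to 3 of 3 VPA libraries at its start site, as 0.209% of all genes did. The share of all genes with a peak there in 1 or 2 VPA and 0 CTRL libraries, as at SNAP25, was not computed.

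**Figure D1:**
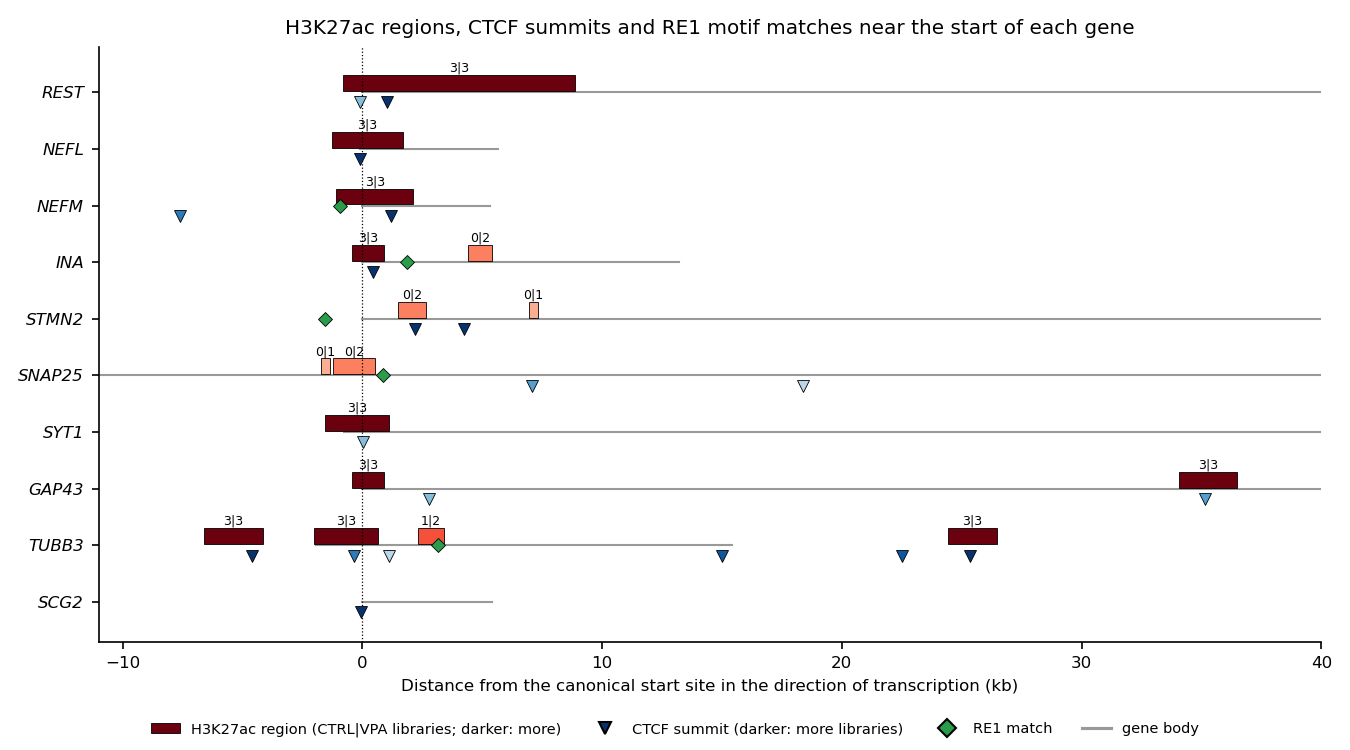
Positions of H3K27ac regions (bars, with the number of CTRL and VPA libraries that had a peak), CTCF summits (triangles) and RE1 matches (diamonds) relative to the canonical start site, in kb, for each gene over 10 kb before and 40 kb after it. The bars of REST, NEFL, NEFM, INA, SYT1, GAP43 and TUBB3 over the start site were found in 3 CTRL and 3 VPA libraries, STMN2 and SNAP25 had bars in VPA libraries alone, and SCG2 had none.

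Merging the peaks of all libraries gave 20 H3K27ac regions in the windows. Of these, 12 were found in all 6 libraries, 3 in fewer libraries of both treatments, and 5 in 1 or 2 VPA libraries and no CTRL library. Over all 55382 regions these classes held 33.2%, 22.2% and 35.3%, so the 5 of 20 seen in VPA alone do not set these genes apart. In bulk chromatin, more cells with a mark and more of it per cell cannot be told apart. None was found in 3 VPA and 0 CTRL libraries, where 4.12% of all regions fell, or in 3 CTRL and 0 VPA libraries, where 0.139% fell. The 5 regions seen in VPA alone belonged to INA (1), STMN2 (2) and SNAP25 (2). All 5 were absent from VPA replicate 1.

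The length of each window covered by H3K27ac peaks rose at none of the 10 genes by the criterion that every VPA library lie beyond every CTRL library. That criterion was met upwards by 26.5% of all genes and downwards by 0.157%. When the libraries were compared within replicate numbers, 3 of the 10 genes (REST, INA and TUBB3) were higher in VPA for 3 of 3 numbers and 0 were lower, against 61.9% and 0.984% of all genes. For H3K27ac, same-numbered libraries deviated together from their treatment means, mostly through replicate 1, so both forms are given. The numbers did not tell replicates 2 and 3 apart. CTRL replicate 2 correlated at 0.59 with VPA replicate 2 and at 0.61 with VPA replicate 3. Without VPA replicate 1 the criterion was met upwards by 5 genes (REST, INA, STMN2, SNAP25 and TUBB3) and by 63.6% of all genes. Without CTRL replicate 3 it was met by 2 of the 10 and by 32% of all. The median difference over the 10 genes was 666 bp, beside 617 bp over all genes. An exact permutation test of 3 against 3 libraries cannot go below p = 0.1, and with 3 pairs not below 0.25. The number of peaks also met the criterion at 0 of 10 genes in either direction, against 10.2% of all genes upwards and 0.147% downwards.

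**Figure D2:**
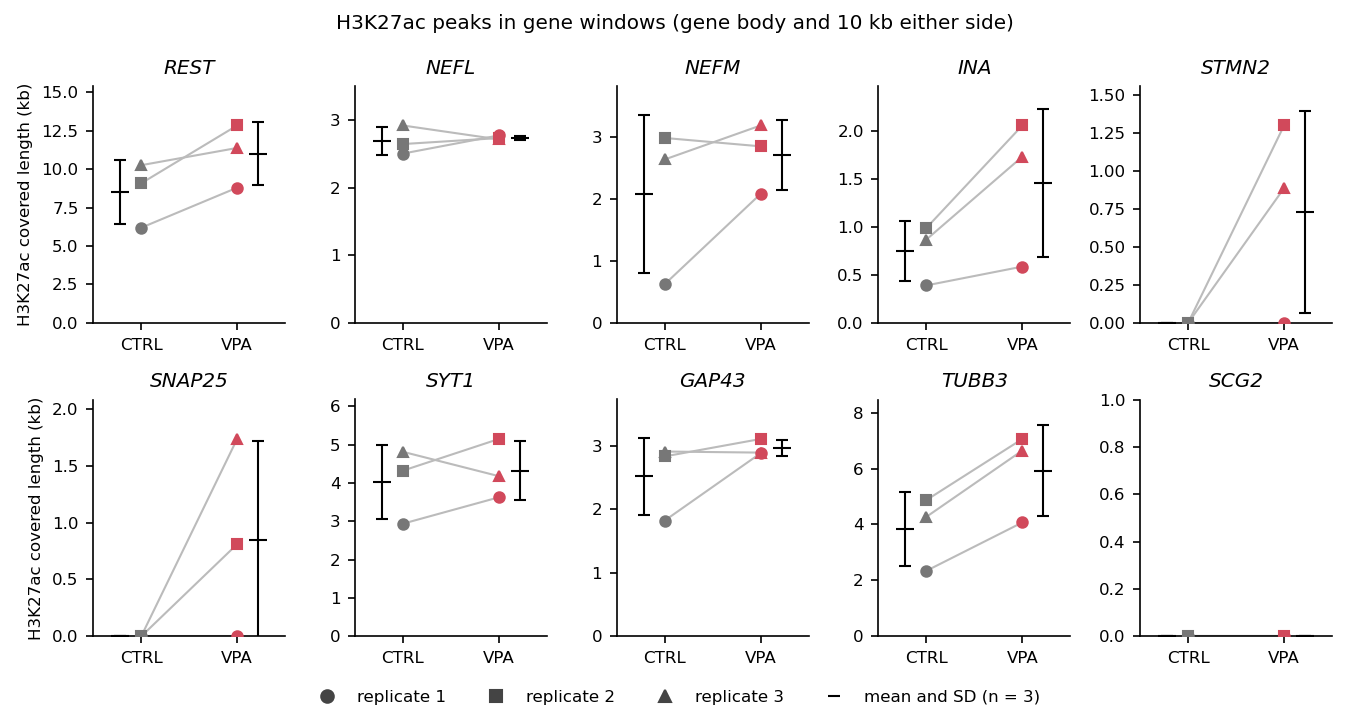
Length of each gene window covered by H3K27ac peaks (kb) in CTRL and VPA, with grey lines joining libraries of the same replicate number and black marks for the mean and SD of 3 libraries. The covered length of REST, INA and TUBB3 was higher in VPA for each of the 3 replicate numbers, STMN2 and SNAP25 were at 0 in all CTRL libraries and in VPA replicate 1, and SCG2 was at 0 throughout.

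At REST the promoter summit was lower in VPA while its peaks were longer for each replicate number. Covered length of the whole window was longer for 3 of 3 replicate numbers at 61.9% of all genes. The start site of REST lay in one wide region (chr4:56907096-56916759) whose summit was 0.937 kb after the start. The summit had 1164, 864 and 780 fragments in CTRL replicates 1 to 3 and 593, 390 and 399 in VPA replicates 1 to 3. Every VPA library was below every CTRL library. For the summit fragments given here and below, the share of all regions without overlap was not computed. Divided by background coverage, they were called lower at 27.1% and higher at 11.9% of all regions (limma, unpaired). The fold enrichment there was 20.9, 95.4 and 82.0 in CTRL (mean 66.1 ± 39.7, SD, n = 3) and 12.6, 29.8 and 28.5 in VPA (23.6 ± 9.57). Peaks covered 4329, 7086 and 8028 bp of the region in CTRL and 6757, 9501 and 8717 bp in VPA, longer in VPA for each replicate number although the groups overlapped. The local background under the summit was 54.7, 8.07 and 8.53 fragments in CTRL and 46.1, 12.1 and 13.0 in VPA, and its part in the difference in fold enrichment was not tested. The highest peak of the region ranked, by its q-value, above 98.1% to 98.7% of its list in CTRL and above 95.01% to 96.6% in VPA.

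In the limma test on log2 fold enrichment, with each library centred on its median region, the REST promoter region fell by 1.23 (95% interval -1.93 to -0.52), with an adjusted p of 0.603. The same difference had an adjusted p of 0.00174 in the replicate block fit. On the summit fragments divided by the background coverage of the library, it was -0.84 (adjusted p = 0.000292, limma). Without both replicate 1 libraries, a limma fit chosen after seeing the data, the difference in log2 fold enrichment was -1.48 (adjusted p = 0.000347). No other protein-coding gene started in the REST window.

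The REST window held 2 more H3K27ac regions. One, 52.9 kb after the start and inside an intron, had peaks in CTRL replicate 3 and VPA replicates 2 and 3, with a fold enrichment of 2.66, 3.13 and 5.11. The other (chr4:56974661-56981392) reached in from the shared promoter of NOA1 and POLR2B, whose summit lay outside the window. There the summit held 946, 786 and 774 fragments in CTRL and 626, 593 and 574 in VPA. The log2 difference was -0.24 in fold enrichment (limma adjusted p = 0.836 unpaired and 0.399 with the replicate block). In fragments over background coverage it was -0.29 (limma adjusted p = 0.0296).

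Over all 12 regions found in all 6 libraries, the unpaired limma test on fold enrichment called 0 higher and 0 lower, as it did for 0% and 0% of the 18407 regions tested. At an unadjusted p under 0.05 it held 3 of the 12 and 1474 of all. The 12 include promoter regions of other genes, at MC1R and DEF8 in the TUBB3 window and at NOA1 and POLR2B. With the replicate block, 3 of the 12 were called higher, 1 of them at MC1R, and 1 lower. Of all regions 6.45% were higher and 8.57% lower. On fragments over background coverage, without a block, 4 were called higher and 4 lower, against 11.9% and 27.1% of all regions. Of the 4 higher 1 lay at MC1R, and of the 4 lower 1 lay at NOA1 and POLR2B. The median log2 difference of the 12 was 0.36 in fold enrichment, beside -0.05 over all regions. Before centring, the median of all regions lay at -0.14 in fold enrichment and -0.28 in fragments over background coverage, so each difference given here is relative to that shift.

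**Figure D3:**
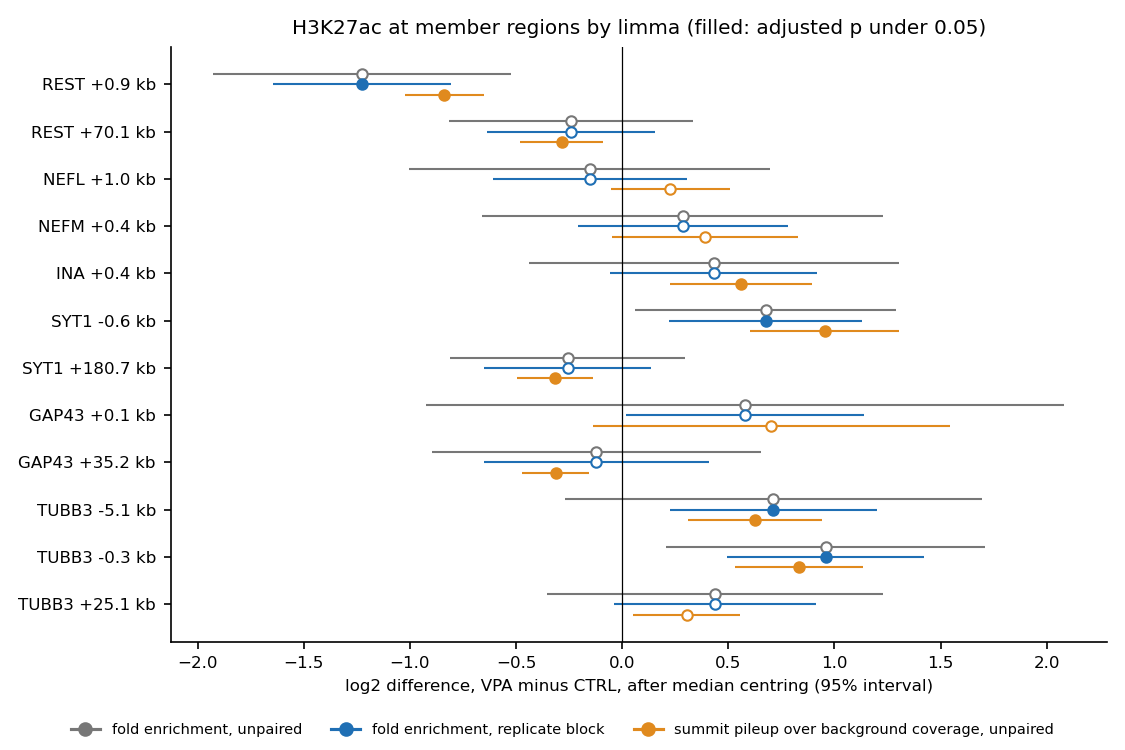
Log2 difference in H3K27ac, VPA minus CTRL after median centring, with its 95% interval from limma at the 12 regions found in all 6 libraries. Grey marks show the fold enrichment without pairing, blue the fold enrichment with the replicate block and orange the summit fragments over background coverage, and a filled mark has an adjusted p under 0.05. The REST promoter lay lowest at -1.23 and the TUBB3 promoter highest at 0.96 in fold enrichment.

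None of the promoter regions of the intermediate filament genes was called on fold enrichment. NEFL encodes the light neurofilament subunit, NEFM the medium subunit and INA alpha-internexin, a related filament protein. The NEFL promoter summit held 149, 145 and 125 fragments in CTRL and 159, 126 and 145 in VPA, with overlapping groups. Its log2 fold enrichment differed by -0.15, with a limma interval of -1.004 to 0.70, and its covered length stayed within 2508 to 2924 bp in all libraries.

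The NEFM promoter held 60, 50 and 61 fragments in CTRL and 78, 59 and 60 in VPA. Its covered length was 623, 2981 and 2634 bp in CTRL and 2079, 2846 and 3182 bp in VPA, so the difference in means, 623 bp, rested on the low value of CTRL replicate 1. The groups overlapped on both measures. The NEFM RE1 match lay at the edge of this region and was covered by a peak in 1 CTRL and 1 VPA library.

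At INA the promoter summit held 122, 82 and 70 fragments in CTRL and 133, 102 and 111 in VPA. It was higher in VPA within each replicate number, while the groups overlapped. The log2 difference was 0.43 in fold enrichment (limma adjusted p = 0.798 unpaired and 0.213 with the replicate block). In fragments over background coverage it was 0.56 (limma adjusted p = 0.0169). A separate intronic region 4.81 kb after the start was found in VPA replicates 2 and 3 alone, with 34 and 25 fragments. The RE1 match of INA lay between these regions, 0.964 kb from the nearer one. Covered length was 391, 990 and 869 bp in CTRL and 587, 2058 and 1733 bp in VPA (750 ± 317 and 1459 ± 773 bp).

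Of the microtubule genes, TUBB3, the neuronal class III beta-tubulin, had the highest difference in fold enrichment among the 12 regions. Its promoter region (chr16:89921344-89923995) held 138, 161 and 130 fragments in CTRL and 264, 202 and 205 in VPA. All VPA libraries were above all CTRL libraries. The fold enrichment was 2.93, 11.6 and 8.46 in CTRL (7.67 ± 4.41) and 6.21, 16.8 and 16.9 in VPA (13.3 ± 6.15). The log2 difference was 0.96 (interval 0.21 to 1.71) with an adjusted p of 0.610 unpaired, 0.0101 with the replicate block and 0.00174 on fragments over background coverage, where the difference was 0.83. Without both replicate 1 libraries, a limma fit chosen after seeing the data, the difference in log2 fold enrichment was 0.88 (adjusted p = 0.0515).

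The TUBB3 window also held the starts of MC1R, of a readthrough gene and of DEF8. The region at the MC1R start, at -5.12 kb from that of TUBB3, held 114, 123 and 108 fragments in CTRL and 175, 138 and 155 in VPA. Its log2 difference in fold enrichment was 0.71 (limma adjusted p = 0.708 unpaired, 0.0455 with the replicate block, and 0.235 without both replicate 1 libraries). The DEF8 promoter region differed by 0.44 (limma adjusted p = 0.766 unpaired and 0.193 with the block). A weaker intronic region 2.71 kb after the TUBB3 start was found in CTRL replicate 2 and VPA replicates 2 and 3, and its peaks covered the RE1 match in 1 CTRL and 2 VPA libraries. Over the whole window, peaks covered 2344, 4872 and 4273 bp in CTRL and 4072, 7055 and 6642 bp in VPA.

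STMN2 had no H3K27ac peak in any CTRL library or in VPA replicate 1. Peaks covered 1297 bp in VPA replicate 2 and 885 bp in VPA replicate 3. They lay in introns, 1.88 kb after the start in both libraries and 7.14 kb after it in replicate 2, with fold enrichments of 2.64 to 5.66. These summits held 27 to 36 fragments, where the lowest peak of each H3K27ac list held 11. The region at 1.88 kb overlapped the CTCF peak at 2.18 kb, whose fold enrichment was 20.7, 38.1 and 52.7 in CTRL and 36.8, 38.8 and 27.6 in VPA. Since a list gives no value where no peak was called, the CTRL level can only be placed below the calling threshold.

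Among the genes of vesicle release, SYT1 and SNAP25 differed. SYT1 encodes synaptotagmin 1, the calcium sensor of vesicle fusion. Its promoter region (chr12:78863234-78865883) held 121, 114 and 140 fragments in CTRL and 239, 200 and 197 in VPA, without overlap. The fold enrichment was 5.24, 11.6 and 14.6 in CTRL (10.5 ± 4.78) and 9.92, 18.96 and 16.04 in VPA (14.97 ± 4.61). The log2 difference was 0.68 (interval 0.06 to 1.29), with an adjusted p of 0.611 unpaired and 0.0435 with the replicate block. On fragments over background coverage it was 0.95 (adjusted p = 0.00192), and without both replicate 1 libraries the fold enrichment differed by 0.54 (adjusted p = 0.237).

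An intronic SYT1 region 181 kb after the start moved the other way. It held 392, 352 and 334 fragments in CTRL and 290, 248 and 223 in VPA, again without overlap. The log2 difference was -0.26 in fold enrichment (limma adjusted p = 0.813 unpaired and 0.365 with the block). In fragments over background coverage it was -0.32 (limma adjusted p = 0.0133). A small region 502 kb after the start was found in 3 CTRL libraries, with 29 to 35 fragments, and in VPA replicate 2 with 23. The total covered length in the SYT1 window overlapped between treatments, at 4025 ± 972 bp in CTRL and 4317 ± 770 bp in VPA.

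SNAP25 had no H3K27ac peak in any CTRL library or in VPA replicate 1. A region over its canonical start had a peak of 30 fragments in VPA replicate 2 and of 31 in VPA replicate 3, covering 810 and 1374 bp. A further region at -1.37 kb was found in VPA replicate 3, with 17 fragments. The RE1 match lay 0.335 kb from the edge of the acetylated region.

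GAP43, a protein of growth cones, had a weak promoter region and a stronger intronic one. The promoter summit held 16, 21 and 21 fragments in CTRL and 32, 29 and 22 in VPA, higher in every VPA library than in every CTRL library. The log2 difference in fold enrichment was 0.58, with a limma adjusted p of 0.853 unpaired and 0.144 with the replicate block. In fragments over background coverage it was 0.70 (limma adjusted p = 0.165). Without VPA replicate 1 the fold enrichment difference was -0.06. The intronic region 35.2 kb after the start held 473, 374 and 336 fragments in CTRL and 327, 244 and 260 in VPA. There the log2 difference was -0.12 in fold enrichment (limma adjusted p = 0.953 unpaired and 0.782 with the block). In fragments over background coverage it was -0.31 (limma adjusted p = 0.00763). Without CTRL replicate 3 the log2 difference in fold enrichment was 0.15, of the opposite sign. SCG2 had no H3K27ac peak in any of the 6 libraries.

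**Figure D4:**
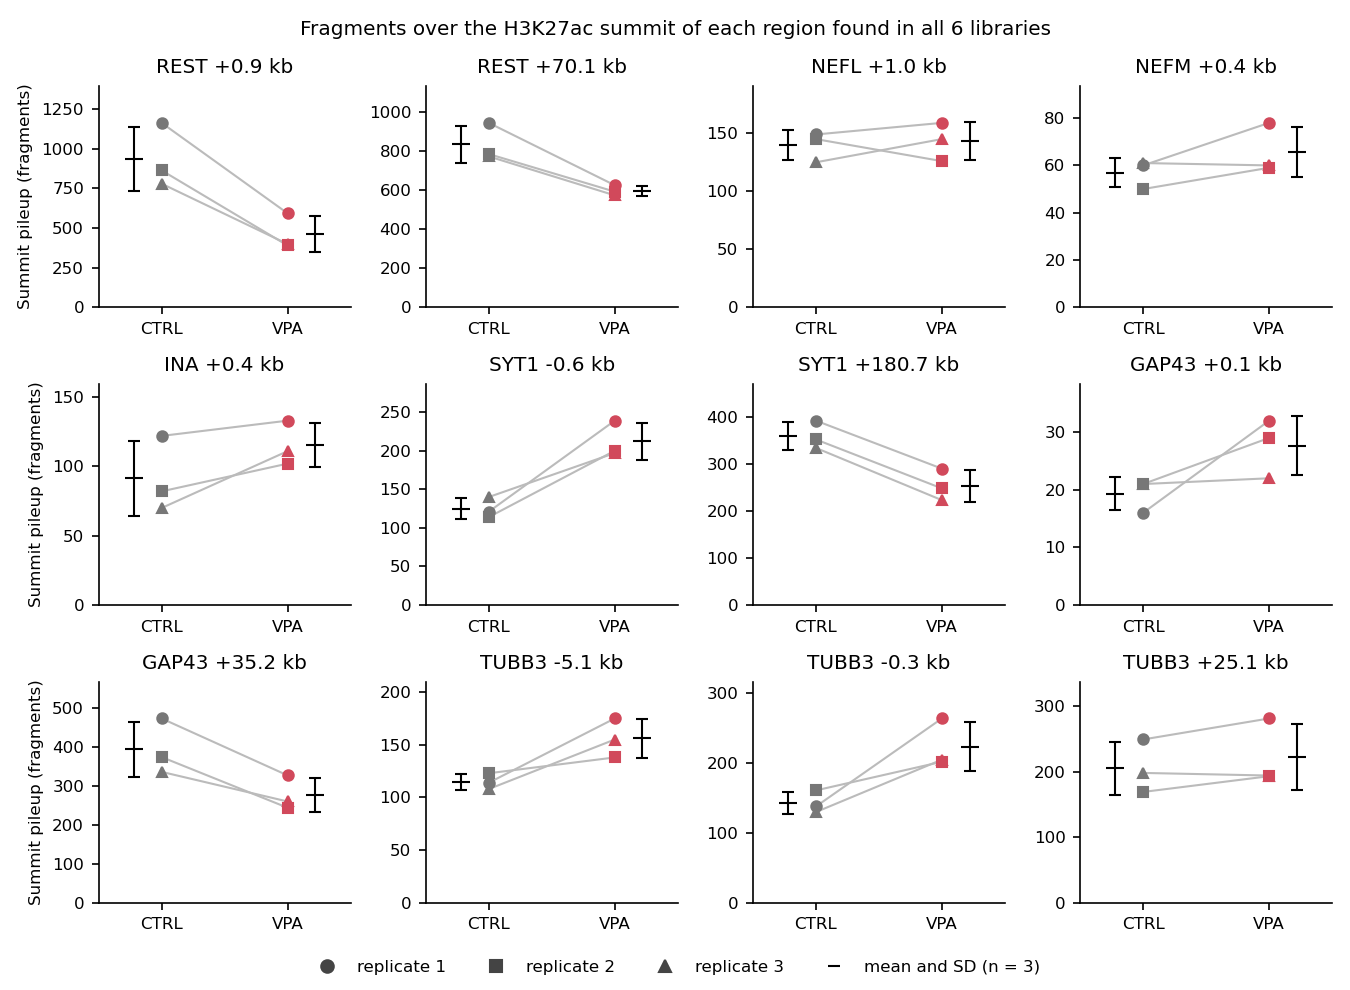
Fragments over the H3K27ac summit at the 12 regions found in all 6 libraries, titled by gene and distance of the summit from the start site, with grey lines joining libraries of the same replicate number and black marks for the mean and SD of 3 libraries. The VPA points of the REST promoter (390 to 593 fragments) lay below its CTRL points (780 to 1164), and those of the TUBB3 promoter (202 to 264) and the SYT1 promoter (197 to 239) lay above theirs (130 to 161 and 114 to 140). The region at NOA1 and POLR2B and the intronic regions of SYT1 and GAP43 were also lower without overlap. The MC1R region and the GAP43 promoter were higher without overlap. The share of all regions without overlap was not computed.

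CTCF differed between treatments without overlap at 1 of the 10 genes, SCG2. The 10 windows held 35 CTCF regions, of which 14 were found in all 6 libraries. None was found in 3 libraries of one treatment and 0 of the other, where 0.186% of the 69985 regions fell for VPA and 0.326% for CTRL. Covered length met the criterion of no overlap upwards at 0 genes (1.12% of all) and downwards at 1 gene, SCG2 (1.64% of all). Within replicate numbers, 0 genes were higher for 3 of 3 numbers (6.67% of all) and 1 was lower, again SCG2 (15% of all). Without CTRL replicate 1, covered length was lower at 4 genes (NEFM, STMN2, SYT1 and SCG2) and at 19.6% of all genes. Peak number met the criterion at 0 genes, against 0.345% of all upwards and 0.775% downwards.

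The SCG2 peak was the clearest CTCF difference among the 10 genes. It lay over the start site, with its summit at -0.055 kb (chr2:223602147-223602787). The fold enrichment was 9.41, 12.7 and 23.2 in CTRL (15.1 ± 7.18) and 3.42, 7.84 and 6.73 in VPA (5.998 ± 2.30), and its fragments were 141, 94 and 106 against 29, 53 and 40. The groups did not overlap on either measure. The share of all CTCF regions without overlap on these measures was not computed. The SCG2 peak covered 532, 591 and 641 bp in CTRL and 316, 519 and 424 bp in VPA (exact permutation test, two-sided, p = 0.1, the smallest possible). In limma the log2 difference in fold enrichment was -1.20 (interval -2.46 to 0.07) with an adjusted p of 1.00. No CTCF region of the 27794 tested was called, 0% higher and 0% lower, and at an unadjusted p under 0.05 there were 129 of all and 0 of the 14. The other 13 regions differed by -0.63 (STMN2, 4.26 kb after the start) to 0.58 (TUBB3 window, at DEF8).

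**Figure D5:**
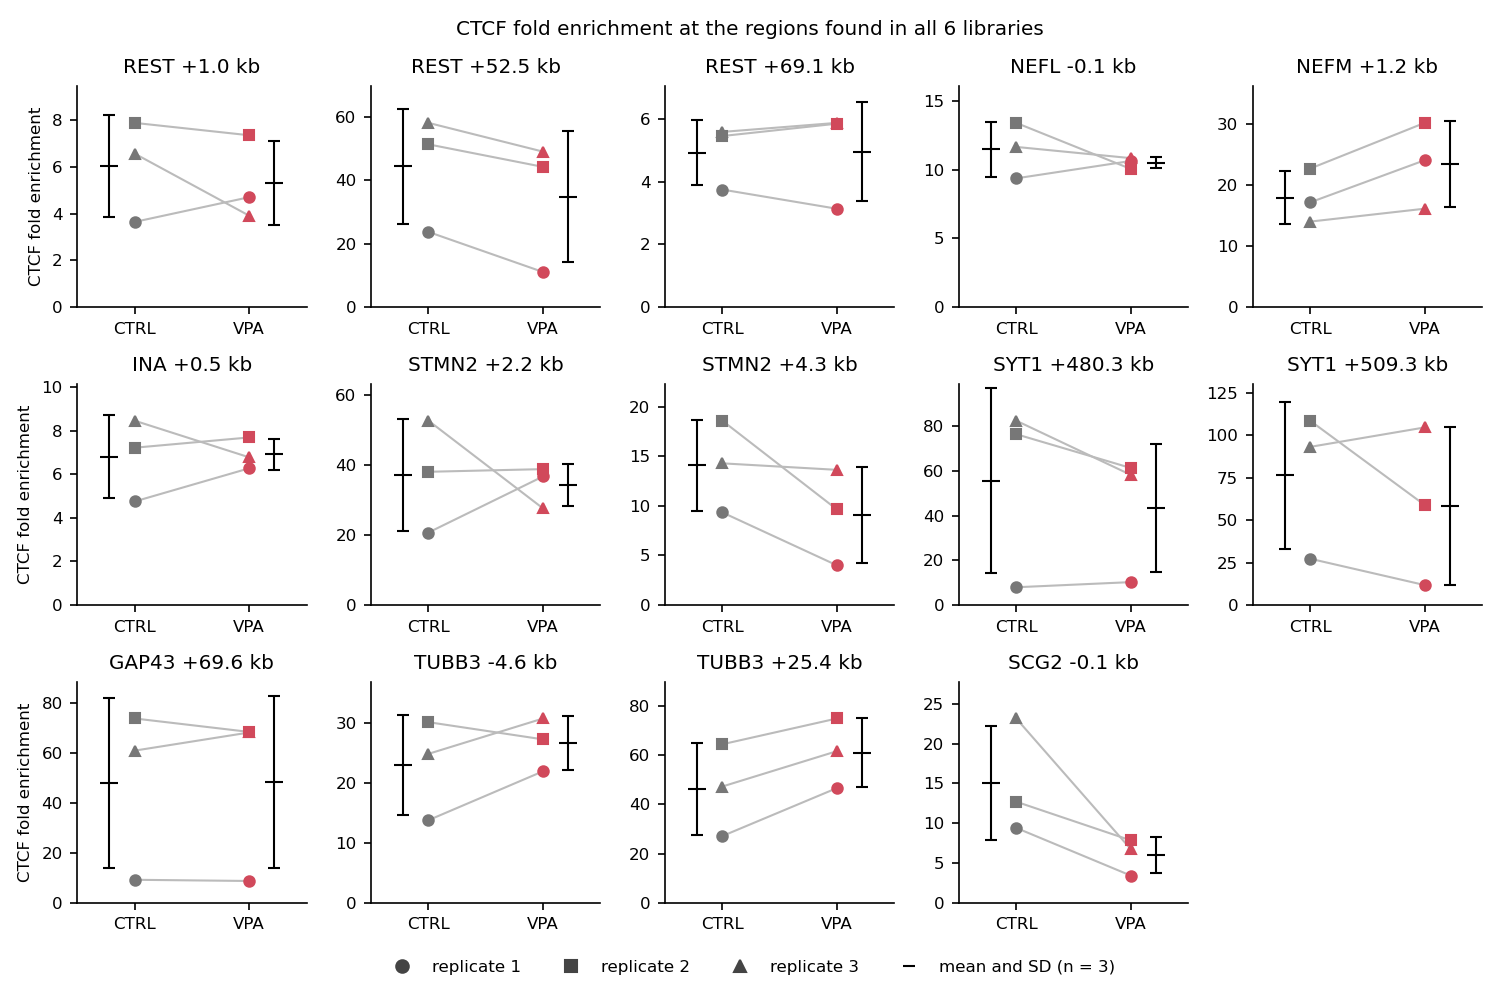
CTCF fold enrichment in CTRL and VPA at the 14 regions found in all 6 libraries, titled by gene and distance of the summit from the start site, with grey lines joining libraries of the same replicate number and black marks for the mean and SD of 3 libraries. At SCG2 all VPA points (3.42 to 7.84) lay below all CTRL points (9.41 to 23.2), and the replicate 1 points of both treatments were low at the intronic sites of SYT1 and GAP43. The share of all CTCF regions without overlap was not computed.

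A CTCF peak lay within 1 kb of the start site in all 6 libraries for REST, NEFL, NEFM, INA and SCG2 (5 of 10, and 24.9% of all genes), and in no library for STMN2, SNAP25 and GAP43 (57.0% of all genes). With lists cut to equal length, 2 of the 10 and 18.6% of all genes had one in all 6 libraries. TUBB3 had one in 2 CTRL and 2 VPA libraries and SYT1 in 2 VPA libraries. Among the genes with one in every library, NEFM had a fold enrichment of 17.2, 22.7 and 14.01 in CTRL and 24.1, 30.2 and 16.1 in VPA at its exonic peak, higher in VPA for each replicate number with overlapping groups. SNAP25 had no CTCF region in all 6 libraries. Its CTCF peaks covered 0, 1617 and 1596 bp of the window in CTRL and 307, 1448 and 1670 bp in VPA, lowest in the replicate 1 libraries of both treatments.

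The motif of CTCF was then searched in the regions. Its core, 12 letters with 1 mismatch allowed, was found in 7 of the 14 regions present in all 6 libraries and in 4 of the other 21, compared with 58.6% and 32.5% of all regions of these classes. Strong intronic sites of SYT1, 509 kb after the start, and of STMN2, 2.18 kb after the start, held no match. Among the strong intronic sites that held one were those of GAP43, REST and SYT1. They are shown with 9 bases of flank on each side, on the strand of the match, with capitals for the letters equal to the motif.
GAP43, chr3:115693077-115693106, minus strand: catttcatcCCAGCAGAGGGCaccagtgta
REST, chr4:56960405-56960434, minus strand: atcatattaCCtCTAGAGGGCggcagcttc
SYT1, chr12:79345039-79345068, minus strand: gaaccctgtCCACaAGAGGGCatgagtgtt

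The GAP43 site, 69.6 kb after the start, had a fold enrichment of 9.24, 73.9 and 61.0 in CTRL and 8.76, 68.5 and 68.3 in VPA. At the REST site, 52.5 kb after the start, it was 23.7, 51.4 and 58.2 in CTRL and 11.1, 44.3 and 49.1 in VPA, lower for each replicate number with overlapping groups. This REST site lay in the intronic H3K27ac region seen in CTRL replicate 3 and VPA replicates 2 and 3. At the SYT1 site, 480 kb after the start, it was 7.95, 76.5 and 82.5 in CTRL and 10.3, 61.3 and 58.2 in VPA. In all 3 the replicate 1 libraries were far below the others. The SYT1 site of the highest mean fold enrichment lay 509 kb after the start and held no match. It had a fold enrichment of 27.3, 108.6 and 93.1 in CTRL and 11.7, 58.9 and 104.6 in VPA, with overlapping groups.

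The CTCF peaks near the starts of REST, NEFL, INA and SCG2 held no match to the core motif, while that of NEFM held 1. In the TUBB3 window the peaks at MC1R and at DEF8 held 1 each, 1 bp from the summit at MC1R and 527 bp at DEF8. The peak at NOA1 in the REST window held none. At the REST peak 1.03 kb after the start, fragments were 191, 74 and 67 in CTRL and 244, 65 and 61 in VPA. The INA peak had 257, 96 and 89 in CTRL and 294, 86 and 72 in VPA, and that of NEFL 194, 76 and 58 and then 281, 78 and 72. Here the replicate 1 libraries were the highest. Their local backgrounds were high as well, at INA 53.2 and 46.0 fragments against 9.62 to 12.4 in the others, and the part of that background in these peaks was not tested. Each of these 3 peaks lay in the acetylated promoter region, whereas the SCG2 peak did not.

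The genes around this list were described through the partners and targets of REST. Of 15 corepressor genes, 15 were acetylated at their start in all 6 libraries, against 61.0% of all genes. Their H3K27ac covered length rose without overlap at 8 and fell at 0, with a median difference of 1812 bp. RCOR1, which encodes the CoREST scaffold, rose from 6050 ± 1275 to 11740 ± 1218 bp and HDAC1, a class I deacetylase, from 6715 ± 301 to 11100 ± 1890 bp. CTDSP2, a small phosphatase, rose from 4268 ± 500 to 6909 ± 956 bp and SIN3A, the SIN3 scaffold, from 9208 ± 659 to 11334 ± 403 bp. With 26.5% of all genes higher by the same criterion and a median over all genes of 617 bp, these counts are given as a description.

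Of 18 textbook REST targets, 4 were acetylated at their start in all 6 libraries and 9 in none, against 61.0% and 30.5% of all genes. Covered length rose without overlap at 6 and fell at 0, where 26.5% of all genes rose and 0.157% fell. The median difference was 1020 bp, beside 617 bp over all genes. BDNF, a neurotrophin, rose from 705 ± 684 to 3379 ± 1500 bp, STX1A, a SNARE protein, from 2814 ± 301 to 5973 ± 2041 bp, and UNC13A, a vesicle priming factor, from 2277 ± 765 to 4504 ± 411 bp. SCN2A, a sodium channel gene, had no peak in CTRL and 301, 747 and 668 bp in VPA. None of the RE1 matches that 10 of these 18 windows held was under an H3K27ac peak, and of the 763 autosomal matches 3.41% lay in H3K27ac regions.

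Further neuronal lists are given by the same criterion, met upwards by 26.5% of all genes and downwards by 0.157%. In the neurofilament and axon cytoskeleton list 5 of 15 rose, among them BASP1, a growth cone protein (1952 ± 789 to 4691 ± 471 bp), and STMN1, a paralogue of STMN2 (3765 ± 1031 to 6305 ± 616 bp). In the synaptic vesicle and exocytosis list 9 of 19 rose, among them SNAP23, a paralogue of SNAP25 (8513 ± 1059 to 12804 ± 2037 bp), and SYT5, a synaptotagmin (2443 ± 353 to 5592 ± 1899 bp). In the neuronal identity list 1 of 15 rose, ELAVL3, an RNA-binding protein of neurons (736 ± 453 to 2983 ± 1230 bp). In the dense core granule list, to which SCG2 is related by function, 0 of 10 rose. Of these 10, 5 had no H3K27ac peak in any library, where 3069 of all 19103 genes had none. None of these lists held a gene that fell. CTCF covered length was higher without overlap at 0 genes of the lists around REST, where 1.12% of all genes were higher. It was lower at CTDSPL (1 of 15 corepressor genes) and at NOVA1 and MYT1 (2 of 15 neuronal identity genes). In the vesicle list it was lower at CPLX1, also 1 of the 18 REST targets, and SYT2 (2 of 19). Of all genes, 1.64% were lower, so these counts are given as a description.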

How the data were processed

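ChIP-seq peak lists of 12 HEK293T libraries (H3K27ac and CTCF, CTRL and VPA, 3 replicates each) were used. Input libraries (6) are not analysed here. The authors aligned reads to hg38 with Bowtie2 and called peaks in each library separately with MACS3 (version 3.0.0a7 in the submitters' processing notes) at a q-value of 0.05. The deposited lists give each peak a score, a fold enrichment (ratio) of the summit over local background, and its −log10 p-value and −log10 q-value. Use of the inputs as control was not given in the sources used here, nor were read totals, so the sequencing depth is unknown.

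Fragments over each summit and the local background were recovered from fold enrichment and p-value under the peak caller's Poisson model. They came out whole within 0.05 in nearly all peaks of each list. The lowest local background of a list, 3.51 to 3.95 fragments, was taken as its background coverage. Windows came from GENCODE 44. Peaks of the 6 libraries of an antibody that shared 1 bp were merged into regions. Regions with a peak in all 6 libraries were tested with limma 3.58.1 (R 4.3.3) on log2 fold enrichment, median-centred, with Benjamini-Hochberg adjustment over all such regions. Window values were compared by overlap of the groups and by exact two-sided permutation tests. Scripts were tested on simulated data. In H3K27ac, same-numbered CTRL and VPA libraries deviated together (correlations of 0.87, 0.59 and 0.59), so block fits stand beside the results. This comes mostly from replicate 1, since CTRL replicate 2 correlated as much with VPA replicate 3 (0.61). In CTCF they were 0.34, -0.05 and 0.48. Whether replicates came from separate cultures was not stated, and p-values measure only the spread between these libraries.

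The genes and lists were chosen with earlier results of these data known. All 10 genes are named, with the regions called by limma and the H3K27ac region of the highest fold enrichment of each gene that had one. Not every CTCF region is named. At most 4 genes of any other list are named, those without overlap and with the largest difference. Alternatives were flanks of 0 and 50 kb, −log10 q minimums of 3 and 10, lists of equal length, summits in the window, a promoter distance of 2.5 kb, no centring, a pseudocount of 1, regions with 2 libraries per treatment, summit fragments, and leaving out each library. One gene of the kidney marker list is not reported here.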

Additional observations from a re-analysis of the deposited data

How the results depend on the processing

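H3K27ac covered length was higher without overlap at 1 of the 10 genes with no flank (NEFM; 21% of all genes), at 5 with 50 kb on each side (36.6%) and at 5 without both replicate 1 libraries (64.2%). When a library was left out it was higher at 0 to 5, with 5 for VPA replicate 1 (63.6%) and 2 for CTRL replicate 3 (32%). With the replicate block it was higher at 3 (61.9%). The 5 genes without VPA replicate 1 were REST, INA, STMN2, SNAP25 and TUBB3. Peak number was higher at 2 genes with 50 kb on each side (21.4%) and at 3 without both replicate 1 libraries (22.7%). Leaving out a library gave 0 to 3 genes higher (3 without VPA replicate 1, 19.7%) and 0 to 1 lower (1 without VPA replicate 2, 0.225%), and 1 gene was lower with a −log10 q of at least 10 (0.257%). Within 2.5 kb of the start, 1 gene had no H3K27ac peak (28.4% of all), and with a −log10 q of at least 10 there were 3 (33.2%). Limma on fold enrichment with the replicate block called 3 H3K27ac regions higher and 1 lower. On summit fragments over background coverage it called 4 and 4, with the block as well 7 and 4 (24.9% and 35.3% of all regions). Without both replicate 1 libraries it called 1 region lower on fold enrichment (REST; 4.20% of all). Fits without both replicate 1 libraries, and summit fragments with the block, were chosen after seeing the data.

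CTCF covered length was lower at 4 genes without both replicate 1 libraries (20.1% of all genes) and at 1 to 4 when a library was left out (4 without CTRL replicate 1, 19.6%). The CTCF replicate block, whose numbers did not pair the libraries, called 1 gene lower in peak number (TUBB3; 3.28% of all) and 0 regions in limma. The SCG2 difference overlapped with 50 kb on each side.

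Some H3K27ac differences changed sign. In covered length these were NEFL (-42.2 to 166 bp when a library was left out, -58.5 bp without both replicate 1 libraries), NEFM (-105 bp without CTRL replicate 1, up to 1074 bp) and SYT1 (-250 to 687 bp). In log2 fold enrichment they were NEFL (0.23 on summit fragments with or without the block, -0.56 to 0.16), GAP43 at its promoter (-0.059 to 1.03) and GAP43 in its intron (-0.43 to 0.15), each when a library was left out. Of the CTCF regions, 9 of 14 changed sign under at least 1 alternative. The causes were not tested. Peak lists hold no values below the calling threshold, so a gene without a peak has an upper limit that is unknown here.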
